A study of Mus musculus with 24 samples.

Results

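Carboxylesterases of the Ces1 and Ces2 groups were followed through the colon of mice that differed in sex, ovarian status and dietary fat. The members were 9 genes, Ces1c, Ces1d, Ces1e, Ces1f, Ces1g, Ces2a, Ces2b, Ces2c and Ces2e, chosen by name with earlier results of these data known. Each was represented by 1 probe, so that 9 of the 56605 probes and 9 of the 22911 named genes on the array were members. The identifiers given in the files were NM_007954 for Ces1c, NM_053200 for Ces1d, NM_133660 for Ces1e, NM_144930 for Ces1f and NM_021456 for Ces1g. Those of the Ces2 genes were NM_133960 for Ces2a, NM_198171 for Ces2b, NM_145603 for Ces2c and NM_172759 for Ces2e. RNA from 24 C57BL/6J mice was hybridized to 1-color Agilent arrays, with 1 mouse on each array. Sham-operated males (M), sham-operated females (F) and ovariectomized (OVX) females, written F(OVX), each supplied 4 arrays on either diet, which gives 6 groups. The mice were 7 weeks old at purchase. For 14 weeks they ate a diet with 10 kcal% fat (LFD, low-fat diet) or one with 45 kcal% fat (HFD, high-fat diet). Every group was given azoxymethane at 10 mg/kg, which starts colon tumors, followed by dextran sulfate sodium in the water at 1.5% over 3 cycles, which inflames the colon, and there was no group without them. The methods of the study name 5 animals per group for the arrays, picked for a body weight close to the group average, whereas the labels give 4 per group. The labels name the tissue as colon, the methods say that the RNA came from its distal portion, and markers of epithelium, smooth muscle, fibroblasts and macrophages were well above background on all arrays. All 9 genes were measured in this mixture, in which fewer cells of a type and less RNA per cell cannot be told apart.

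Carboxylesterases are serine hydrolases that cut ester, amide and thioester bonds in drugs, xenobiotics and lipids. Most are held in the endoplasmic reticulum, and the enzymes of the Ces1 group are best known from liver, where several of them hydrolyze stored triacylglycerol. The enzymes of the Ces2 group are best known from intestinal epithelium, where they hydrolyze ester prodrugs and acylglycerols. The mouse genome carries both groups as rows of closely related copies on chromosome 8. Probes for such copies may share target sequence, and the probe sequences were not used here, so cross-hybridization between members was not tested.

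The windows of 250 bases before the annotated starts are shown for some members, 3 from the Ces2 group and 1 from the Ces1 group. They were taken from RefSeq on build GRCm38.p6, are written 5' to 3' on the strand of the gene, and were found for 6 of the 9 members. None was found for Ces1d, Ces1f or Ces2b, so these cannot be shown. Capitals mark GAACTTT in the Ces2 windows, the one of 3 runs of 7 bases held by all 3 of them that overlaps a searched motif, and TTTATNG in the Ces1g window, letters that the intestinal factors Cdx1 and Cdx2 are known to bind.
Ces2a (chr8:104733753-104734002, plus strand): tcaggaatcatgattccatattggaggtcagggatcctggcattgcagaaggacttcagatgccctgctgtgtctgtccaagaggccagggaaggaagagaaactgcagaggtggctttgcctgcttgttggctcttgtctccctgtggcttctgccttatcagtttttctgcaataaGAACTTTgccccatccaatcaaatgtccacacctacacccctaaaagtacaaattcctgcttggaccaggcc
Ces2c (chr8:104846818-104847067, plus strand): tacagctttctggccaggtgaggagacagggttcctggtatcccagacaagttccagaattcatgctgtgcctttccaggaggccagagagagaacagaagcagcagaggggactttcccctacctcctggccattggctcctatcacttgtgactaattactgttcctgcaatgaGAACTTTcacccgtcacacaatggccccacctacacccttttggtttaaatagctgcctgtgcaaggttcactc
Ces2e (chr8:104926010-104926259, plus strand): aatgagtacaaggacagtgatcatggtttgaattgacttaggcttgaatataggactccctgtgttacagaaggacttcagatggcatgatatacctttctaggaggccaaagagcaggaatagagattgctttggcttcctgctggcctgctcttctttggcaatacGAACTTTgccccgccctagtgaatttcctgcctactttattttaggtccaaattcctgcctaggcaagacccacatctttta
Ces1g (chr8:93337210-93337459, minus strand): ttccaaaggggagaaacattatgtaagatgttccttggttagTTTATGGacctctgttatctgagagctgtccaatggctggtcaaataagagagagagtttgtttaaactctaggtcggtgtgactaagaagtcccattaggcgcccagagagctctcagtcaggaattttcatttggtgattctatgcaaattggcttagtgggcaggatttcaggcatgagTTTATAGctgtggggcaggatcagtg
The other 2 runs, GAGGCCA (6.56% of all windows) and TTCCTGC (7.28%), are not marked and were also absent from the 3 Ces1 windows. Counted from the start, GAACTTT began at -72 in Ces2a, -74 in Ces2c and -82 in Ces2e, and it was absent from the windows of Ces1c, Ces1e and Ces1g. On either strand, 3.28% of the 32851 windows of this length hold it. In Ces2a and Ces2e these letters overlap a match on the minus strand to an HNF4-type repeat, which resembles the elements bound by Hnf4a and other nuclear receptors. This motif was searched after the windows had been seen, and 25 of the 32851 windows (0.0761%) hold it. Ces2a and Ces2e also shared a run of 17 identical bases, cagaaggacttcagatg, which 2 windows in all hold. TTTATNG matched at -208 and at -26 in Ces1g, and 9.81% of all windows hold at least 1 match. The second match overlaps the only TATAAA found in the 6 windows, on the minus strand, and 12.4% of all windows hold TATAAA. The CCAAT box was found in the windows of Ces1c, Ces1g, Ces2a and Ces2c and in 33.8% of all windows. The GC box GGGCGG was found in that of Ces2e and in 32.7%, and the GATA motif AGATAA in those of Ces1e and Ces1g and in 9.99%. Searched on both strands like the others, the xenobiotic element GCGTG (28.2% of all windows), the antioxidant element (10.2%), a single HNF4 motif (0.384%) and the PPAR repeat (0.0335%) were in none of the 6. The 6 windows held between 44.0% and 51.2% G and C, against a median of 52.4% over all windows. These matches describe letters only.

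**Figure D1:**
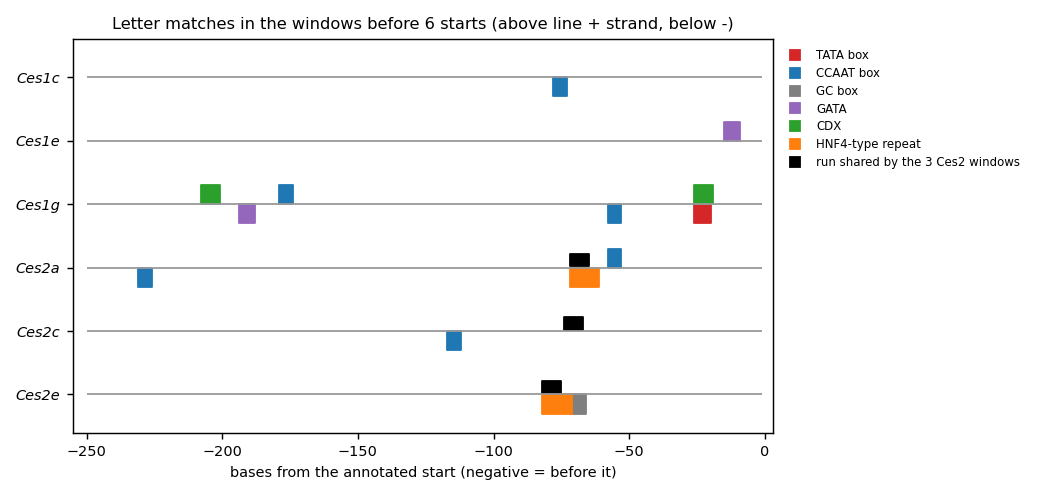
Positions of the letter matches in the 250 bases before the annotated starts of 6 members, in bases from the start (x axis), with 1 line per gene, matches on the plus strand of the gene drawn above the line and those on the minus strand below it. One of 3 shared 7-base runs, the one that overlaps a motif, is drawn (black) and begins at -72, -74 and -82 in Ces2a, Ces2c and Ces2e, and the HNF4-type repeat (orange) overlaps it in Ces2a and Ces2e.

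The share of probes well above background was 40.5% to 61.9% per array, and replicate arrays had a Pearson's r of 0.951 to 0.99 over all probes. Each slide held 1 sex or surgery, so that sex and surgery cannot be told apart from slide, and on each slide LFD lay in row 1 and HFD in row 2, so that diet cannot be told apart from row. M + LFD replicates 1 and 2 stood apart from the other arrays. Hoxb13, a gene of the most distal colon, had a log2 signal of 2.18 on M + LFD replicate 1 and 5.04 on replicate 2, against 12.58 to 14.79 on the other 22 arrays. Hoxb6, a gene of more anterior gut, had 12.71 and 11.20, against 4.47 to 8.35 on the others. Hoxb4, Hoxb5, Hoxb7 and Hoxb8 were likewise above all other arrays on both, whereas Hoxa4 (4.47 and 4.83, against 4.74 to 6.9) and Hoxa5 (6.81 and 7.61, against 7.23 to 8.79) were low or within range and Hoxa7 was within range. On replicate 2 the small intestinal genes Sis (9.20), Lct (6.98) and Apoa4 (7.79) exceeded their highest values on the 22 other arrays, which were 5.84, 4.27 and 2.94. The methods describe distal sampling, beside which the Hoxb13 signals of these 2 arrays are low, and the reason was not tested. The main diet calls in males, and their differences from females and OVX females, are therefore given with and without these 2 arrays. The order of groups, the separations at the same diet and the replicate-block values are given only with them included. Levels are log2 values of the background-subtracted signal after quantile normalization over the 24 arrays, and they can be compared between arrays for a gene but not between probes of different genes. The probes of 8 members were well above background on all 24 arrays, and that of Ces1c on 5 arrays.

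Among the Ces1 genes, Ces1g, a lipid-handling carboxylesterase of liver and intestine, covered the widest range. Its log2 signal was 11.86, 10.78, 6.96 and 8.65 on the M + LFD arrays 1 to 4, and 4.79, 5.65, 6.34 and 5.85 on the M + HFD arrays. It was 9.27, 8.01, 5.6 and 7.27 in F + LFD and 6.95, 7.72, 5.44 and 7.40 in F + HFD. The F(OVX) + LFD arrays had 6.30, 6.71, 7.32 and 7.21, with 6.19, 8.72, 6.34 and 7.11 in F(OVX) + HFD. M + LFD replicates 1 and 2 were the highest of the 24 arrays, every M + HFD array lay below every M + LFD array, and the female groups overlapped throughout.

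Ces1d, a triacylglycerol hydrolase of the endoplasmic reticulum, had 11.52, 10.42, 8.51 and 9.41 in M + LFD and 8.76, 8.37, 9.20 and 7.73 in M + HFD. In F + LFD it had 10.02, 9.10, 6.96 and 7.45, and in F + HFD 8.74, 8.86, 7.87 and 8.13. In F(OVX) + LFD it had 7.73, 10.10, 8.23 and 8.03, and in F(OVX) + HFD 7.91, 10.05, 8.47 and 9.40. The first 2 M + LFD arrays were again the highest, and the ranges of all 6 groups overlapped.

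Ces1f, a close relative of Ces1d that is also linked to triacylglycerol turnover in liver, had 11.74, 11.87, 10.17 and 9.90 in M + LFD and 8.66, 9.68, 9.93 and 8.22 in M + HFD. In F + LFD it had 10.69, 10.30, 7.36 and 9.08, and in F + HFD 10.14, 10.35, 8.52 and 9.70. In F(OVX) + LFD it had 8.87, 9.33, 8.73 and 8.53, and in F(OVX) + HFD 9.53, 11.59, 9.42 and 9.50. The lowest M + LFD array was just below the highest M + HFD array, so that the male groups touched, whereas all F(OVX) + HFD arrays lay above all F(OVX) + LFD arrays.

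Ces1e, known as egasyn for holding beta-glucuronidase in the endoplasmic reticulum of liver, had the narrowest range of the 4 Ces1 genes measured on every array. Its log2 signal lay between 8.51 and 10 (median 9.14) in M + LFD, where replicate 1 was the highest of the 24 arrays, and between 7.72 and 8.86 (median 8.68) in M + HFD. It lay between 7.09 and 9.36 (median 8.54) in F + LFD, between 8.19 and 9.08 (median 8.77) in F + HFD, between 8.03 and 9.32 (median 8.64) in F(OVX) + LFD and between 8.44 and 9.61 (median 8.91) in F(OVX) + HFD. All of these ranges overlapped. Ces1c, an esterase secreted into blood plasma, was well above background on 1 array each of M + HFD, F + LFD and F + HFD, on 2 arrays of F(OVX) + LFD and on none of M + LFD or F(OVX) + HFD. Its highest log2 signals were 7.75 on F(OVX) + LFD replicate 4 and 7.25 on F + LFD replicate 3. It passed the filter on dim probes in no comparison and was not tested there. With no filter it was called higher on HFD in males, at 1.45, where 1 of 8 arrays was well above background.

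Among the Ces2 genes, Ces2c, which hydrolyzes acylglycerols in the intestine, had a log2 signal of 14.90, 15.09, 11.03 and 12.89 in M + LFD and 12.72, 12.83, 13.47 and 13.00 in M + HFD. It had 13.27, 11.93, 11.77 and 12.67 in F + LFD and 12.26, 12.36, 12.01 and 11.89 in F + HFD. It had 12.42, 13.94, 11.43 and 12.08 in F(OVX) + LFD and 12.56, 12.69, 12.77 and 12.68 in F(OVX) + HFD. M + LFD held both the 2 highest arrays of the 24 (replicates 1 and 2) and the lowest (replicate 3). Its SD over 4 arrays was 1.91 in M + LFD and 0.09 in F(OVX) + HFD.

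Ces2b, an adjacent relative whose substrates are less well described, followed the same order, with 14.18, 14.36, 10.12 and 12.09 in M + LFD and 11.94, 12.02, 12.51 and 12.24 in M + HFD. It lay between 11.21 and 12.64 (median 11.65) in F + LFD, between 11.28 and 11.62 (median 11.49) in F + HFD, between 10.85 and 13.36 (median 11.71) in F(OVX) + LFD and between 11.98 and 12.26 (median 12.14) in F(OVX) + HFD. As for Ces2c, M + LFD held the highest 2 arrays and the lowest.

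Ces2e, an intestinal and hepatic member, had 14.78, 14.63, 11.93 and 12.46 in M + LFD and 12.09, 12.47, 13.06 and 12.26 in M + HFD. Its other groups lay between 11.52 and 13.36 (F + LFD), 11.60 and 12.63 (F + HFD), 11.89 and 12.78 (F(OVX) + LFD) and 12.23 and 12.73 (F(OVX) + HFD), and all ranges overlapped.

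Ces2a, a member also known from liver lipid metabolism, had 11.04, 11.27, 8.15 and 9.09 in M + LFD and 10.15, 9.99, 9.46 and 9.38 in M + HFD. It lay between 8.42 and 9.0 in F + LFD, 8.45 and 9.08 in F + HFD, 7.92 and 9.73 in F(OVX) + LFD and 8.86 and 9.22 in F(OVX) + HFD. All M + HFD arrays lay above all arrays of F + LFD, F + HFD and F(OVX) + HFD.

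By mean level, M + LFD came first for all 8 genes measured on every array, and the order of the other groups differed from gene to gene. Neighboring groups in that order overlapped for every gene, except that the M + HFD arrays of Ces2a lay above the F(OVX) + HFD arrays that followed them. These means include M + LFD replicates 1 and 2, and the order of groups without them is not given here. M + LFD replicates 1 and 2 were the highest 2 of 24 arrays for 7 of the 8 genes, and their part in the first place of M + LFD was not tested. Ces1e was the exception, with ranks 1 and 3. The lower of these 2 arrays exceeded the highest of the other 22 by 1.52 for Ces1g, 1.27 for Ces2e, 0.96 for Ces2c, 0.89 for Ces2a, 0.82 for Ces2b, 0.32 for Ces1d and 0.15 for Ces1f on the log2 scale.

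**Figure D2:**
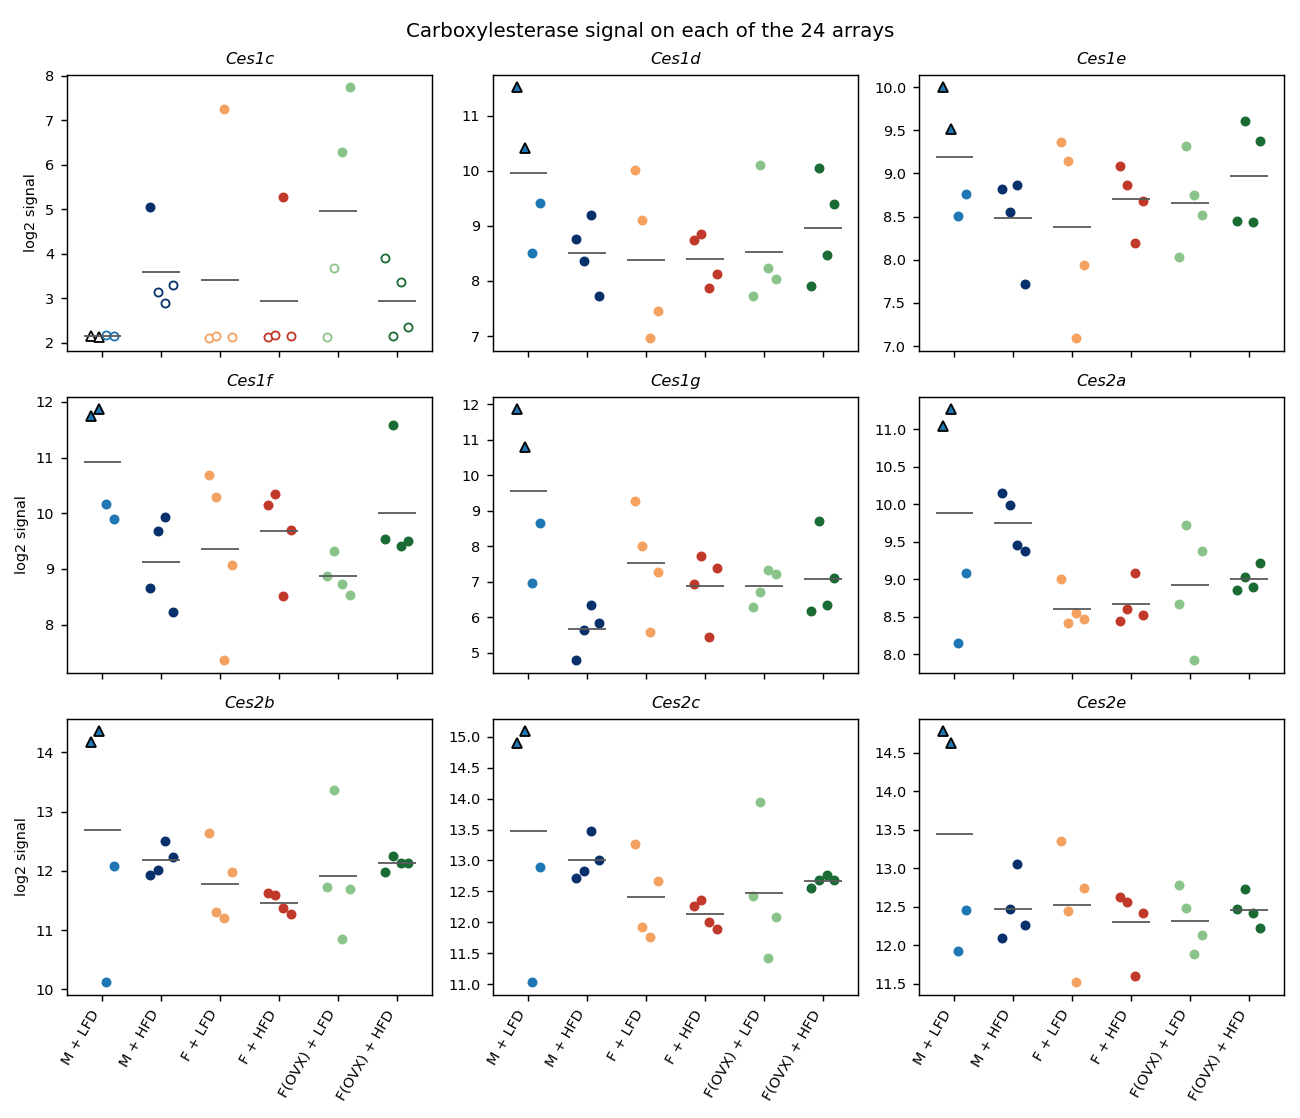
Log2 signal (y axis, quantile-normalized) of the 9 carboxylesterases on each of the 24 arrays by group (x axis), with 1 point per array and a line at the group mean. Triangles are M + LFD replicates 1 and 2, open symbols are arrays on which the probe was not well above background, and the y axes differ between panels and do not start at 0. The triangles are the top 2 arrays for 7 of the 8 genes measured on all arrays.

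The first comparison asked how HFD changed these genes in males. The average of M + HFD was below that of M + LFD for all 8 tested genes, with a median log2 difference of -0.84 against 0.01 over the 26117 probes tested. Probes were called in limma by the study's rule, which asks for an unadjusted p under 0.05 and a difference of 1.5-fold or more, and 3 members were called, all lower on HFD. Over all probes 1.85% were called lower, 2.38% higher and 4.23% in either direction. Since the genes were chosen with this contrast known, their values are a description, nothing is read from the count and no p is given. Ces1g was 9.57 ± 2.19 in M + LFD and 5.66 ± 0.65 in M + HFD (SD, n = 4 each), a log2 difference of -3.91 (SE 0.96) or 15-fold lower on HFD. Ces1f differed by -1.80 (SE 0.56), 3.47-fold lower on HFD, and Ces1d by -1.45 (SE 0.61), 2.73-fold lower. The other 5 were not called, with differences of -0.98 (SE 0.65) for Ces2e, -0.71 (SE 0.38) for Ces1e, -0.51 (SE 0.84) for Ces2b, -0.47 (SE 0.81) for Ces2c and -0.14 (SE 0.66) for Ces2a. Ces1g was the only one of the 8 with all HFD arrays below all LFD arrays, which 0.95% of the probes showed.

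Without M + LFD replicates 1 and 2, the Ces1 and Ces2 genes parted. Ces1g stayed called, at 4.44-fold lower on HFD (log2 difference -2.15, SE 0.57), and its 4 HFD arrays remained below both remaining LFD arrays. Ces1f (-0.91, SE 0.50), Ces1d (-0.44, SE 0.45) and Ces1e (-0.15, SE 0.35) kept the sign and were not called. The 4 Ces2 genes changed sign. Ces2a was called at 2.18-fold higher on HFD (log2 difference 1.13, SE 0.35), with all HFD arrays above both LFD arrays, and Ces2b (1.07, SE 0.51), Ces2c (1.05, SE 0.50) and Ces2e (0.28, SE 0.31) were not called. In that comparison 1.6% of 26211 probes were called higher and 2.67% lower, and 6.71% had all HFD arrays above both LFD arrays and 6.42% below them. The median over the 8 genes was then 0.07, against 0.00 over all probes. These values for the Ces2 genes rest on M + LFD replicates 3 and 4, and replicate 3 was the lowest of all 24 arrays for Ces2b and Ces2c. With replicate 3 left out instead, 7 members were called, all lower on HFD, with -1.36 for Ces2b, -1.29 for Ces2c and -1.49 for Ces2e. Leaving out M + LFD replicate 1 or 2, or M + HFD replicate 1, 2 or 4, took away the call of Ces1d, as did the methods' t-test and testing with no filter on dim probes, and Ces1f and Ces1g were called in each of the 8 fits that left out 1 male array.

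In females, none of the 8 tested members was called, against 1.34% of 28234 probes in either direction, 0.648% higher and 0.691% lower. Log2 differences lay between -0.66 (SE 0.78) for Ces1g and 0.32 (SE 0.49) for Ces1e, 4 genes were higher and 4 lower on HFD, and the median was -0.10 against 0.01 over all probes. The spread between arrays was wide in the F + LFD group, where Ces1g was 7.54 ± 1.53 and Ces1f 9.36 ± 1.5 (SD, n = 4). F + LFD replicate 3 was the lowest of all 24 arrays for Ces1d, Ces1e and Ces1f, and F + LFD replicate 1 was above the F + HFD arrays for Ces1d, Ces1e, Ces1f and Ces1g. No member was called in any fit that left out 1 female array.

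In OVX females, all 8 members averaged higher on HFD, with a median log2 difference of 0.22 against 0.02 over the 24433 probes tested. Ces1f was called, at 8.87 ± 0.34 in F(OVX) + LFD and 10.01 ± 1.05 in F(OVX) + HFD (SD, n = 4 each), a log2 difference of 1.15 (SE 0.47) or 2.21-fold higher on HFD. Over all probes, 1.14% were called higher, 0.97% lower and 2.11% in either direction, and 1.49% had all HFD arrays above all LFD arrays, as Ces1f had. Its value rested in part on F(OVX) + HFD replicate 2, and without that array the difference was 0.62 and still called. The call was lost when F(OVX) + LFD replicate 1, 3 or 4 was left out, and by the methods' t-test. Smooth muscle markers were higher on HFD in the same mice, with 4 of 7 called (Des, Cnn1, Actg2 and Tagln, the last 2 named after their values were seen), and so were the absorptive colonocyte markers Alpi (1.82) and Guca2a (0.9), 2 of 12 called with a list median of 0.42, and the goblet cell marker Spdef (0.76). The macrophage marker Mrc1 (-0.67), the hepatocyte marker Ttr (-0.95) and the anterior gene Hoxa5 (-0.74) were called lower. The part of these markers in the Ces1f value was not tested. The other 7 genes lay between 0.08 (SE 0.35) for Ces2a and 0.44 (SE 0.60) for Ces1d and were not called. Without F(OVX) + LFD replicate 2, Ces2b and Ces2c were also called, at 0.71 and 0.70.

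**Figure D3:**
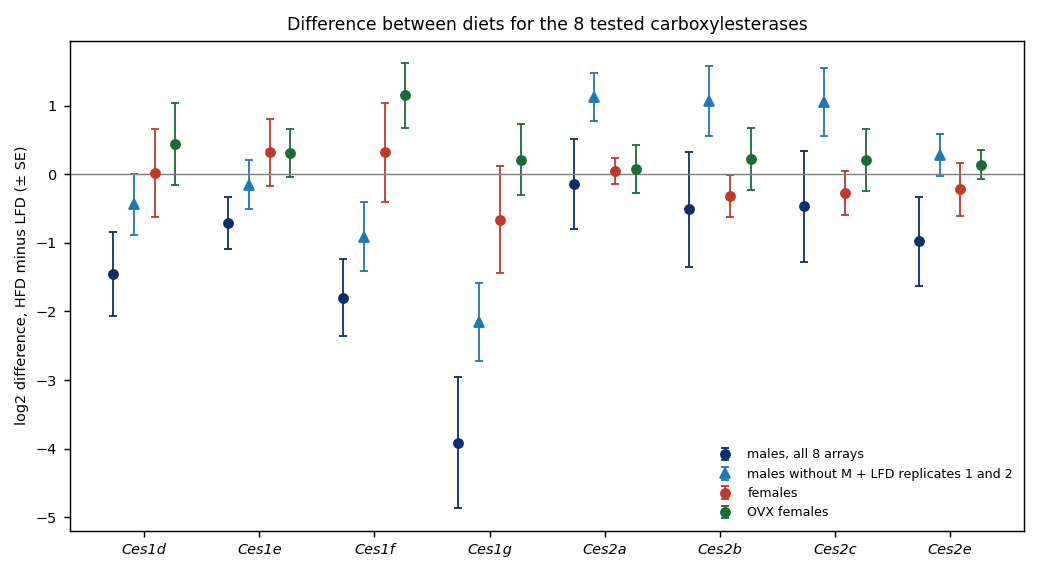
Log2 difference between HFD and LFD (y axis, points, with bars of 1 SE from limma) for the 8 tested carboxylesterases (x axis) in males, in males without M + LFD replicates 1 and 2, in females and in OVX females. In males all 8 points lie below 0, and without the 2 arrays the 4 Ces2 points lie above 0 while Ces1g remains at -2.15.

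The diet differences were then compared between the groups of mice in 1 fit of the 24 arrays, in which the comparisons of males with females and of males with OVX females share the male arrays. For Ces1g, the male difference minus that of females was -3.25 (SE 1.22) and minus that of OVX females -4.11 (SE 1.22), and both were called. Without M + LFD replicates 1 and 2 these were -1.49 (SE 1.09), not called, and -2.36 (SE 1.09), called. For Ces1f they were -2.11 (SE 0.93) and -2.94 (SE 0.93), both called, and without the 2 arrays -1.23 (SE 0.99) and -2.06 (SE 0.99), neither called. These were the only 2 of 8 members called in either comparison, both lower. Against females, 3.22% of probes were called, 1.5% lower and 1.72% higher, and against OVX females 6.15%, with 3.13% lower and 3.02% higher. Without the 2 arrays, Ces2a was called in both, at 1.07 (SE 0.49) and 1.05 (SE 0.49), where 1.38% and 2.18% of probes were called higher, 2.25% and 2.79% lower and 3.63% and 4.97% in either direction. With the replicate number as a block, Ces1d (-1.88) and Ces1e (-1.02) were called as well in the comparison of males with OVX females, and Ces1e (-1.03) in that with females. Between OVX females and females no member was called, where 1.73% of probes were called, 0.76% higher and 0.968% lower, and values lay between -0.01 for Ces1e and 0.87 (SE 1.22) for Ces1g.

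At the same diet, few members separated the sexes or the operated from the intact females. On HFD, all M arrays lay above all F arrays for Ces2a, Ces2b and Ces2c, 3 of 8 members, against 4.64% of 25987 probes. Ces2a also lay above all F(OVX) + HFD arrays, as 4.23% of 25531 probes did. Ces2b and Ces2c were higher on all F(OVX) + HFD arrays than on all F + HFD arrays, with 12.13 ± 0.11 against 11.47 ± 0.17 for Ces2b and 12.68 ± 0.09 against 12.13 ± 0.22 for Ces2c (SD, n = 4 each), and 2.89% of 25203 probes showed this. On LFD, all M arrays of Ces1f lay above all F(OVX) arrays, as 4.05% of 25546 probes did. No member separated F + LFD from M + LFD or from F(OVX) + LFD, where M + LFD was above for 3.23% and below for 2.24% of probes, and F + LFD above F(OVX) + LFD for 0.647% and below for 0.949%. In the directions that no member showed, M lay below F for 3.84% and below F(OVX) for 3.72% on HFD, M below F(OVX) for 3.51% on LFD, and F above F(OVX) for 2.11% on HFD. These groups lay on different slides, and M + LFD replicates 1 and 2 were included.

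By the median of Pearson's r, the members varied together more within each group of genes than between them. Over 22 arrays, without M + LFD replicates 1 and 2, Pearson's r was between 0.57 and 0.91 for the 6 pairs within Ces1 (median 0.72), between 0.12 and 0.98 for the 6 pairs within Ces2 (median 0.64), and between -0.38 and 0.65 for the 16 pairs across the groups (median 0.30). Ces2b and Ces2c were the closest pair, with r = 0.98 over 22 arrays, and their difference varied by an SD of 0.13 between the 24 arrays. Ces1d and Ces1e followed with r = 0.91. Ces1g and Ces2a had r = -0.38. Ces2e was the Ces2 gene nearest to Ces1, with r = 0.65 to Ces1f and 0.51 to Ces1g. With all 24 arrays the median across the groups was 0.58, and r between Ces1g and Ces2a was 0.39. These values include differences between group means. As deviations from the group mean over the 22 arrays, r was 0.02 for Ces1g with Ces2a. It was 0.77 for Ces2e with Ces1f and 0.70 for Ces2e with Ces1g. The range was then 0.69 to 0.93 within Ces1, 0.09 to 0.99 within Ces2 and 0.02 to 0.77 across the groups. The arrays share slides and diets, and these correlations are a description.

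**Figure D4:**
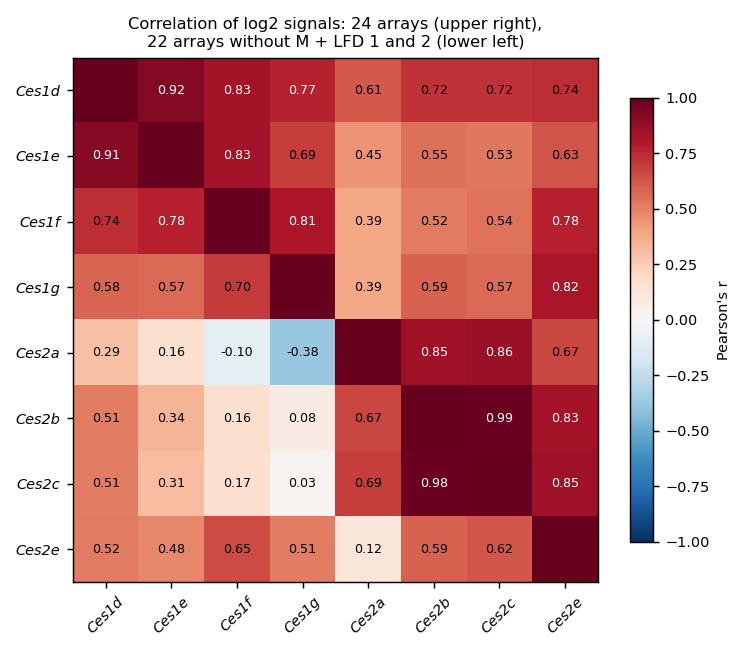
Pearson's r between the log2 signals of the 8 carboxylesterases measured on every array, over 24 arrays (upper right) and over 22 arrays without M + LFD replicates 1 and 2 (lower left), with color from -1 to 1. Values between Ces1 and Ces2 genes drop in the lower left, to -0.38 for Ces1g with Ces2a, and Ces2b with Ces2c stays at 0.98.

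Array by array, the mean deviation of the 4 Ces1 genes from their 24-array averages was 2.67 and 2.03 on M + LFD replicates 1 and 2, and that of the 4 Ces2 genes was 2.11 and 2.23. On M + LFD replicate 3 the Ces2 genes were at -1.30, the lowest of the 24 arrays, while the Ces1 genes were at -0.08. On the M + HFD arrays the Ces2 genes lay on the other side, with the Ces1 genes between -1.23 and -0.03 and the Ces2 genes between 0.11 and 0.52. F + LFD replicate 3 was lowest for Ces1, at -1.86, with the Ces2 genes at -0.85. F(OVX) + HFD replicate 2 had the Ces1 genes at 1.38 and the Ces2 genes at 0.07.

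**Figure D5:**
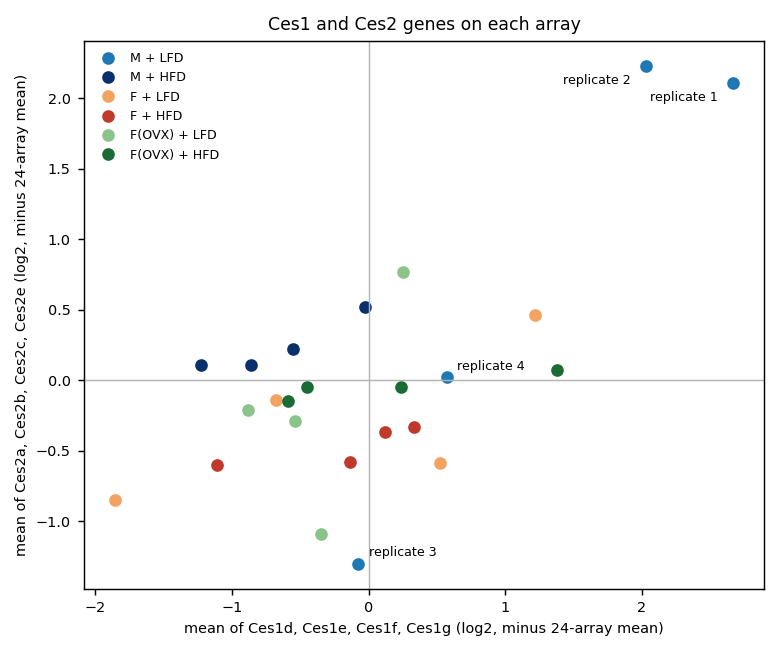
Mean log2 deviation of Ces1d, Ces1e, Ces1f and Ces1g (x axis) and of Ces2a, Ces2b, Ces2c and Ces2e (y axis) from their 24-array averages, 1 point per array, colored by group, with the M + LFD arrays numbered. M + LFD replicates 1 and 2 lie apart at the upper right, and the 4 M + HFD arrays lie to the left of 0 and above 0.

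Of the other carboxylesterase genes, 9 had a probe, and Ces2g was the only one well above background on all arrays. In males it differed in the opposite direction. Ces2g had 6.65, 6.54, 7.66 and 8.08 in M + LFD and 8.25, 8.35, 7.93 and 8.74 in M + HFD, and M + LFD replicates 1 and 2 were the lowest 2 of the 24 arrays. The log2 difference on HFD was 1.08 (SE 0.36), which was called and did not pass adjustment (limma, adjusted p = 0.807). Without M + LFD replicates 1 and 2 it was 0.45 and not called. In females it was 0.19 (SE 0.2, limma, adjusted p = 0.988) and in OVX females -0.22 (SE 0.3, limma, adjusted p = 1), neither called. The male difference exceeded that of OVX females by 1.3 (SE 0.45, limma, adjusted p = 0.548), which was called, and by 0.66 without the 2 arrays, which was not. A Ces2f probe was well above background on 16 arrays, and its highest log2 signals, 6.76 and 6.88, were on M + LFD replicates 1 and 2, against 3.55 to 5.93 on the other 22. The other Ces2f probe was well above background on no array, with 2.02 and 2.08 on those 2. Ces1b was well above background on 12 arrays, with 2.92 and 2.12 on M + LFD replicates 1 and 2, and Ces3a on 8. Without those 2 arrays Ces1b entered the test in males through the 2 remaining M + LFD arrays, at 6.26 and 5.32. Of the 4 M + HFD arrays, 2 were well above background. Ces1b was called there, at -1.85 (SE 0.73, limma, adjusted p = 0.923). It passed the filter only through the group where it was high, so nothing is read from this call. The probes of Ces1a, Ces2h, Ces3b and Ces4a were well above background on no array, and one of the Ces5a probes on 1.

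Genes that share substrates, partners or known regulators with the carboxylesterases were described from lists, each gene by its brightest probe. The lists were drawn up with earlier results of these data known. Over all named genes, 2.47% were called higher and 1.95% lower in males. In females these shares were 0.414% and 0.457%, and those of OVX females were 1.35% and 0.852%, with median log2 differences of 0.01, 0.01 and 0.02. After adjustment, 0 probes passed 0.05 in males, females or OVX females by limma, and 1593, 900 and 877 had an unadjusted p under 0.05. The called list genes had limma adjusted p-values of 0.807 to 0.814 in males and 1 in OVX females. Of 20 other ester and lipid hydrolases tested in males, 3 were called lower and 0 higher (median -0.36). They were Lpl, the lipoprotein lipase, at -1.47 (SE 0.45), Nceh1, a neutral cholesterol ester hydrolase, at -1.12 (SE 0.44), and Pon2, a lactonase named after its value was seen, at -0.64 (SE 0.25). In OVX females, 2 of 19 were called higher, Aadac, a deacetylase related to the carboxylesterases (0.95, SE 0.29), and Mgll, the monoacylglycerol lipase (0.86, SE 0.33). In females 0 of 20 were called.

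Carboxylesterase products feed monoacylglycerol acylation and chylomicron assembly. Of 15 genes of this list tested in males, 2 were called lower, Fabp2, the intestinal fatty acid binding protein (-2.43, SE 0.97), and Mogat2, which acylates monoacylglycerol (-1.65, SE 0.69). Both were called higher in OVX females, where 2 of 14 were called, at 1.90 (SE 0.72) for Fabp2 and 1.14 (SE 0.34) for Mogat2. In females 0 of 14 were called. Among 24 nuclear receptors and factors known to act on carboxylesterase genes, 1 was called in males and 1 in OVX females. It was Cdx2, the intestinal homeobox factor, at -1.77 (SE 0.52) in males and 1.16 (SE 0.51) in OVX females, with list medians of -0.05 and 0.03. In females 0 of 25 were called.

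The list of phase I and II drug metabolism had both the most genes tested and the most calls of these 4 lists in males. Of 30 genes tested, 6 were called lower and 0 higher (median -0.41), and the largest differences were those of the cytochromes Cyp2c65 (-3.98, SE 1.40) and Cyp2c66 (-3.73, SE 1.40). Gsta2, a glutathione transferase, was at -1.25 (SE 0.47), and Cyp2c55 (-3.38), Nqo1 (-1.23) and Gsta4 (-0.83), named after their values were seen, were also called lower. In OVX females, Cyp2c65 (1.77, SE 0.76) and Cyp2c66 (1.86, SE 0.73) were called higher and Gsta2 lower (-0.91, SE 0.26), with 3 of 29 called higher, Ugt1a6a (0.65) being the other, and 1 lower. In females 0 of 29 were called. Without M + LFD replicates 1 and 2, none of these genes was called in males, and the medians were -0.04 for the hydrolases, 0.16 for the chylomicron list, 0.11 for the regulators and 0.05 for drug metabolism. Other genes of the lists were called there, Apob higher (0.77), Fmo5 (1.4) and Cyp3a13 (0.99) higher, and Gsta3 (-1.45) and Cyp2e1 (-3.08) lower, all named after their values were seen. The mean level of the drug metabolism list was 12.23 and 12.08 on those 2 arrays and 10.19 to 11.49 on the other 22, and it correlated with the mean of the 4 Ces1 genes at r = 0.88 over the 22 arrays and with that of the Ces2 genes at r = 0.56.

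Markers of position and of cell types moved with the members on some arrays. Of the 7 distal colon genes 6 had a probe, and the mean of the 3 that were used was 2.08 and 4.44 on M + LFD replicates 1 and 2 and 8.90 and 9.58 on replicates 3 and 4, against 9.0 to 11.5 in M + HFD. Of 10 anterior Hox genes, 7 were used, with 9.65 and 9.37 on M + LFD replicates 1 and 2, 7.08 and 7.22 on replicates 3 and 4 and 6.17 to 7.14 in M + HFD. In males Hoxb13 (5.56) and Hoxd13 (4.75) were called higher on HFD and Hoxb6 (-3.27) and Hoxb7 (-2.92) lower, and none of them without M + LFD replicates 1 and 2. The colonocyte marker Slc26a3 was called higher (1.1), and not without those arrays (1.0). The 12 of 13 absorptive colonocyte markers that were used lay between 11.57 and 13.36 in M + LFD and between 11.58 and 13.15 in M + HFD, and M + LFD replicate 3, lowest for the Ces2 genes, was the 11.57. Over 22 arrays this list correlated with the Ces2 mean at r = 0.72 and with the Ces1 mean at r = 0.65. The 10 epithelial markers lay between 14.19 and 14.95 on all arrays. Their part in the carboxylesterase differences was not tested.

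Lists of other cell types were read in the same way. Macrophage markers (8 of 8 used) lay between 8.89 and 9.80 in both male groups, between 9.11 and 11.29 in F + LFD, between 8.98 and 10.40 in F + HFD and between 9.08 and 9.96 in OVX females. F + LFD replicate 3, the lowest array for the Ces1 genes, had the 11.29 and also the highest fibroblast level, 12.57 for 6 of 6 markers, and over 22 arrays the Ces1 mean correlated with the macrophage list at r = -0.68 and with the fibroblast list at r = -0.57. Adipocyte markers (5 of 8 used), of which Cidec was called lower on HFD in males (-3.06), ranged from 5.53 to 9.30 and correlated with the Ces1 mean at r = 0.15 over 22 arrays. Without M + LFD replicates 1 and 2, Cidec was not called (-1.98), and Retn (-4.39) and Cfd (-6.57), named after their values were seen, were called lower. The filter then rests on fewer M + LFD arrays, and 6 adipocyte markers passed it, against 4 with all arrays. Retn was well above background on 14 of the 24 arrays and Cfd on 17. They may have passed only through the group where they were high, so nothing is read from their calls. Plin1 was well above background on 1 array and Adipoq on 13. The hepatocyte markers (5 of 9 used) lay between 5.84 and 8.58 and among them Ahsg and Fgb were well above background on no array and Alb on 15, with a highest log2 signal of 6.17. Ttr was called higher on HFD in males (2.19), and not without the 2 arrays (0.86). Small intestinal markers (5 of 8 used) were highest on M + LFD replicate 2 (9.73) and replicate 1 (8.23), with 6.02 to 8.22 elsewhere. Goblet cell markers (8 of 8 used) lay between 15.25 and 16.25, and smooth muscle markers (7 of 7 used) between 11.73 and 14.51. The part of these cell types in the carboxylesterase values was not tested.

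The genes whose signal followed Ces1g and Ces2c most closely were sought among 14113 genes. Over 24 arrays, the highest for Ces1g was Aldh1a1, a retinaldehyde dehydrogenase (r = 0.89, Spearman's rho = 0.76), and Prpsap1, Nceh1 and Hkdc1 were among the next (r = 0.86 each). Over the 22 arrays they were Pir (r = 0.84, rho = 0.90), Tmed4 (0.82), the sulfate transporter Slc13a1 (0.80), Grip1 (0.78) and Inpp1 (0.77), and none of the genes named was in both lists. For Ces2c, Ces2b came first in both, with r = 0.99 and 0.98. Over 24 arrays Abcb4 (0.94), Dgkq (0.93) and Cyp3a13 (0.92) were among those that followed. Over 22 arrays they were Aqp8, a water channel of surface colonocytes (0.94), Abcg2, a drug efflux pump (0.90), Car4, a carbonic anhydrase of the colonocyte surface (0.90), and Fam83e (0.87). The arrays share slides and diets, and these values rank likeness and test nothing.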

How the data were processed

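Colon RNA of 24 mice was measured on 1-color Agilent arrays. Per the file headers, the deposited values are spot intensities that Agilent Feature Extraction 11.0.1.1 had background-subtracted, with flags for outliers and for signal well above background. The members and gene lists were chosen with earlier results of these data known. Control and outlier spots were removed from the 62976 spots. Log2 values of the remaining spots were quantile-normalized over the 24 arrays, and spots of a probe were then averaged. Probes took their symbol from the accession in the files, which named 32994 of 56605 probes. A probe was tested if 1 of the groups compared had it well above background on each of its 4 arrays, or on each array kept where some were left out. Diet contrasts were fitted with limma 3.58.1 in R 4.3.3 on the arrays compared, and differences of contrasts on all 24, with Benjamini-Hochberg adjustment. Each array is 1 mouse, and p-values measure only the spread between these mice. The calling steps were tested on simulated data. The text names every carboxylesterase, the 2 largest called genes per list and contrast, genes called in more than 1 contrast, and the 5 genes most like Ces1g and Ces2c, of which some are not reported here. Other genes are marked as named after their values were seen. The replicate number is the slide column. Over 21160 probes, deviations of same-numbered female arrays correlated at r = 0.29, 0.42, 0.58 and 0.26. In males r was between -0.26 and 0.01, and in OVX females between -0.07 and 0.33. The labels name no pairs, and whether the numbers pair the mice was not tested. Normalization, background correction, the filter, the test, the fit and the arrays used were varied.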

Additional observations from a re-analysis of the deposited data

Results flagged for a closer look

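Ces1f in F(OVX) + HFD replicate 2 had a log2 signal of 11.59, and the nearest of the other 3 arrays of its group had 9.53, a gap of 0.95 of the group's range. It was the only one of 48 sets of 4 arrays that stood out in this way. For independent sets of normal values chance gives about 1 in 20. The 48 sets share arrays and hold genes that vary together, so the count of 1 is not weighed against chance and nothing is read from it.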

How the results depend on the processing

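The members called with all arrays kept their sign under every alternative run. The Ces2 genes did not in males, where Ces2b and Ces2c were called at -1.36 and -1.29 without M + LFD replicate 3 and were at 1.07 and 1.05 without both low-Hoxb13 arrays, and Ces2a went from -0.14 to 1.13, called there. The number of members called ranged from 2 to 7 in males when 1 array was left out, with 7 called without M + LFD replicate 3, from 0 to 3 in OVX females, stayed at 0 in females and in the difference between OVX females and females, and ranged from 1 to 4 for males minus females and 2 to 6 for males minus OVX females. In OVX females 0 members were called with no filter, with the methods' t-test and with all 24 arrays in 1 fit. For males minus females, 1 was called without both low-Hoxb13 arrays. With the replicate block, 4 were called for males minus OVX females, and the diet calls of members were the same 3, 0 and 1. Over all probes, leaving out 1 array gave 757 to 1860 calls in males (1104 with all arrays), 217 to 1075 in females (378), 266 to 861 in OVX females (516), 569 to 1714 for males minus females (921), 1068 to 2288 for males minus OVX females (1626) and 271 to 821 for OVX females minus females (489). With normexp background correction these were 688, 94, 314 and 594 for the first 4, and 198 for the last. Without a filter they were 786 in females, 1051 in OVX females, 1414 for males minus females and 1104 for OVX females minus females. The methods' t-test gave 600, 177 and 251 in males, females and OVX females. Probes well above background on all 24 arrays gave 171 in females and 285 for OVX females minus females, and 1 fit of 24 arrays gave 334 in OVX females. The replicate block gave 828 in females, 1583 for males minus females and 778 for OVX females minus females. In females 48.4% of calls were higher, against 37.3% with 75th percentile scaling and 28.7% with normexp. The cause of these shifts was not tested. The number of arrays, 4 per group, limits the precision, and Ces1c, well above background on 5 arrays, was compared only with no filter, where it was called in males (1.45) and Ces1d was not.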
